A study of Mus musculus with 8 samples.

Results

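miR-31 is a microRNA whose hairpin gives rise to a mature strand from each arm, miR-31-5p and miR-31-3p. Both strands were followed here in footpad skin of mouse embryos, where eccrine sweat glands develop. The members were all array probes whose systematic name is mmu-miR-31-5p or mmu-miR-31-3p, which gave 2 miRNAs with 4 probes, out of 1881 mouse miRNAs with 4415 probes. The 8 single-colour Agilent arrays came from mice labelled C57BL6 and formed 4 groups of 2: Dicer conditional knockout (cKO) and wild-type (WT) footpad skin at E16.5 (embryonic age in days), and the same genotypes at E17.5. Each array was hybridised with RNA pooled from 3 to 5 embryos, so that a p-value measures the spread between such pools. The labels name neither the Cre driver nor the deleted cells, the alleles carried by the controls are not given, and Dicer mRNA was not measured by these probes.

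Dicer is the endonuclease that cuts precursor hairpins into short duplexes, of which a strand is loaded into an Argonaute protein. The loaded strand finds its target mRNAs mainly through its seed, bases 2 to 8, and lowers their translation or stability. In skin, miR-31 is known as a miRNA of keratinocytes that promotes their proliferation, is raised in wounded and psoriatic epidermis, and in mouse hair follicles restrains Fgf10, Sost and Bambi during the growth phase. For most hairpins one strand accumulates as the guide while the other, the passenger, is degraded, and for miR-31 the 5p strand is the one usually studied as the guide.

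The mature sequences are shown because the seed defines a miRNA family and because each probe reads a defined stretch of its strand. They were taken from RefSeq (GRCm38.p6), 5′ to 3′, with the seed in capitals.
miR-31-5p: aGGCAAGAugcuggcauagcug
miR-31-3p: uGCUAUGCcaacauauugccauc
Of the 1738 mature mouse miRNAs in the RefSeq table, 0 others carried the seed of either strand, so that no seed family had to be considered beside them. The strands are 22 bases (5p) and 23 bases (3p) long. The hairpin, of 106 bases, lies on the minus strand at chr4:88910557-88910662 of GRCm38.p6, where it overlaps the long noncoding RNA gene Gm49890, and Ifne, the gene of interferon epsilon, is the nearest protein-coding neighbour on the lower coordinate side. It is printed with both mature strands in capitals, since an uncut hairpin holds the target of each probe and its signal was not told apart from that of the mature strand.
Mir31 hairpin: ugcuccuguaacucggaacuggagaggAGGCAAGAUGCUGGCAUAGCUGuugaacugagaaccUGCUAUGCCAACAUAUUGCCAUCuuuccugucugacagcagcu
A loop of 14 bases separates the strands.

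Each strand was read by 2 probes that differ by a base at the 3′ end, which is given in capitals. Every probe was printed in 15 spots per array.
miR-31-5p, longer probe (A_54_P1322): cagctatgccagcatcT
miR-31-5p, shorter probe (A_54_P1323): cagctatgccagcatc
miR-31-3p, shorter probe (A_54_P3474): gatggcaatatgttggca
miR-31-3p, longer probe (A_54_P3475): gatggcaatatgttggcaT
The longer 5p probe of 17 bases is complementary to bases 6 to 22 of miR-31-5p and the shorter one of 16 bases to bases 7 to 22. On the 3p strand, the probe of 19 bases pairs with bases 5 to 23 and the probe of 18 bases with bases 6 to 23. All 4 reach into the seed at its 3′ side and leave the 5′ end of the strand unread. The files place the longer 5p probe at chr4:88556494-88556509 and the longer 3p probe at chr4:88556529-88556546 on mm9, intervals that are a base shorter than the probes. No other mature miRNA of the RefSeq table held the full complement of any of the 4 probes (0 matches), and the longest run shared with another was 9 bases.

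Signals were fluorescence intensities above background in arbitrary units, with no saturated miR-31 spot (0 spots). With 2 arrays per group, precision is limited by the number of arrays. The second array of each genotype at E16.5 stood apart in sensitivity, with 280 (cKO) and 278 (WT) miRNAs detected, against 349 to 382 on the other 6 arrays. The tests over miRNAs, the lists and the likeness to miR-31-5p are also given without these second arrays. The 4 groups occupy 4 columns of 1 slide and the replicate number goes with its row, so that position on the slide and group cannot be told apart. Of 5 skin epithelium markers (miR-203-3p, miR-205-5p, miR-200c-3p, miR-141-3p and miR-200b-3p) between 4 and 5 were detected per array, as were all 5 markers of dermal mesenchyme. Of 3 nerve markers between 0 and 1 were detected per array. Here miR-9-5p and miR-124-3p were detected on no array, while miR-219a-5p was detected on enough arrays to be tested.

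miR-31-5p was low in cKO footpads at both stages and clear in all wild-type footpads. At E16.5 the mean signal of its longer probe was 14.1 and 16.9 units on the cKO arrays, against 63.7 and 51.8 units on the WT arrays. At E17.5 it was 15.9 and 20.6 units in cKO, against 103 and 125 units in WT. All 4 cKO arrays lay below all 4 WT arrays, which on the scaled log2 values described below was so for 11.2% of the 383 tested miRNAs. The separation held for single spots, which are technical repeats: the brightest cKO spot of this probe reached 34.3 units, whereas the dimmest WT spot had 39.0 units.

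The shorter 5p probe gave the same picture at a lower signal. Its signal was 7.90 and 8.41 units in cKO against 41.0 and 39.2 units in WT at E16.5, and 10 and 12.1 units in cKO against 70.6 and 87.9 units in WT at E17.5. Here too the genotypes did not overlap. The share of all miRNAs with such a separation was not computed for unscaled signals or for shorter probes.

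miR-31-3p was faint in every group. At E16.5 its longer probe had 9.99 and 10.4 units in cKO, against 20.2 and 14.4 units in WT. At E17.5 it had 14.1 and 15 units in cKO, against 30.3 and 35.5 units in WT. Within each stage both cKO arrays were below both WT arrays, but the E17.5 cKO values reached the level of the dimmer E16.5 WT array. The shorter 3p probe had 8.52 and 10.2 units in cKO against 13.4 and 11.4 units in WT at E16.5, and 10.9 and 13.8 units in cKO against 24.7 and 27.0 units in WT at E17.5. Negative control spots averaged 2.56 to 4.69 units on the cKO arrays and 4.16 to 4.79 units on the WT arrays once outlier spots were left out, as they were for the probes. With outlier spots kept they averaged 3.77 to 7.6 units on the cKO arrays, the highest being the second E16.5 array, and 4.3 to 6.14 units on the WT arrays.

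**Figure D1:**
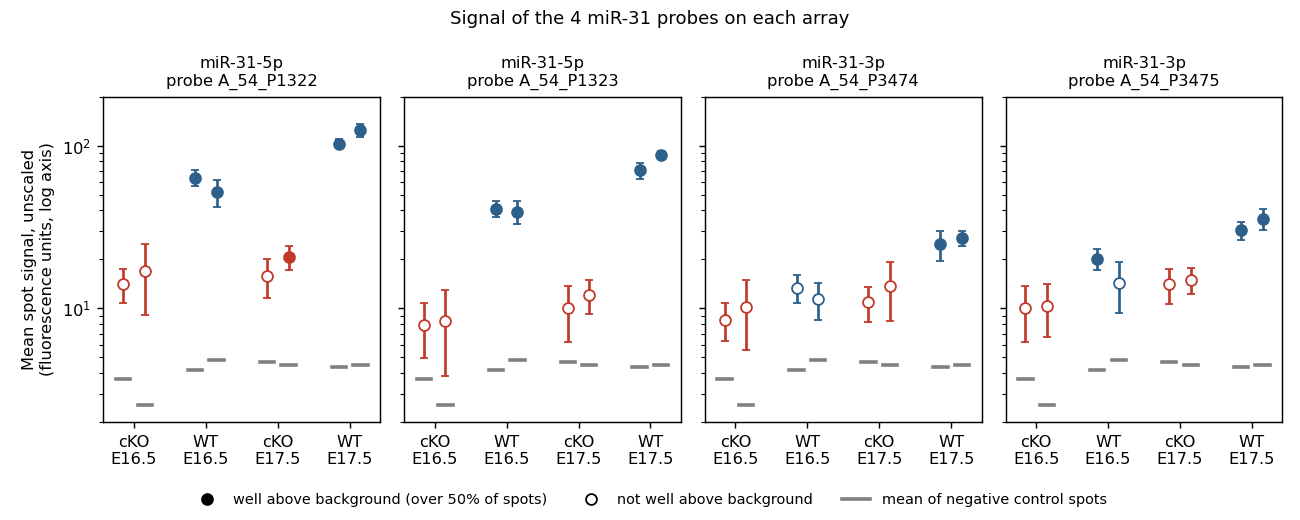
Mean spot signal of the 4 miR-31 probes (log axis, fluorescence units, unscaled) on each of 8 arrays, 2 per group, with bars for the SD over spots and grey lines for the mean of the negative control spots (outlier spots left out). Filled points were well above background in over 50% of spots. Both 5p probes lie lower on all cKO arrays than on all WT arrays, and both 3p probes are highest on the E17.5 WT arrays. On scaled log2 values, all cKO arrays lay below all WT arrays in 11.2% of tested miRNAs.

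The scanner software marks each spot that is well above background, and a probe was taken as detected where more than 50% of its usable spots carried the mark. With the longer 5p probe 6 and 2 of 15 spots were marked on the E16.5 cKO arrays, against all 15 on each WT array. On the E17.5 cKO arrays 7 and 10 spots were marked, so that miR-31-5p was detected on 1 of 4 cKO arrays and on 4 of 4 WT arrays. The shorter 5p probe was marked in 0 of 15 and 0 of 14 usable spots on the E16.5 cKO arrays, in 1 of 15 and 0 of 15 on the E17.5 cKO arrays, and in every usable spot in WT. The software's own call per miRNA, which sums spots and probes, was "detected" for miR-31-5p on all 8 arrays, with total signals of 4.06 to 9.50 units in cKO and 26.5 to 61.2 units in WT.

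By its probes, miR-31-3p was detected in wild type alone. Its longer probe was marked in 2 of 15 and 0 of 14 spots on the E16.5 cKO arrays, against 13 and 1 of 15 spots on the WT arrays. At E17.5 5 of 15 and 1 of 14 spots were marked in cKO, against all 15 on each WT array. The probe was detected on 0 of 4 cKO arrays and 3 of 4 WT arrays, the missing one being the second E16.5 WT array, which is among the 2 less sensitive ones. The software's own call differed: it was "detected" on 3 of 4 cKO arrays, with totals of 2.88, 7.29 and 8.38 units, and on 3 of 4 WT arrays, with totals of 9.67, 15.8 and 17.9 units. The exceptions were the second E16.5 arrays of both genotypes.

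**Figure D2:**
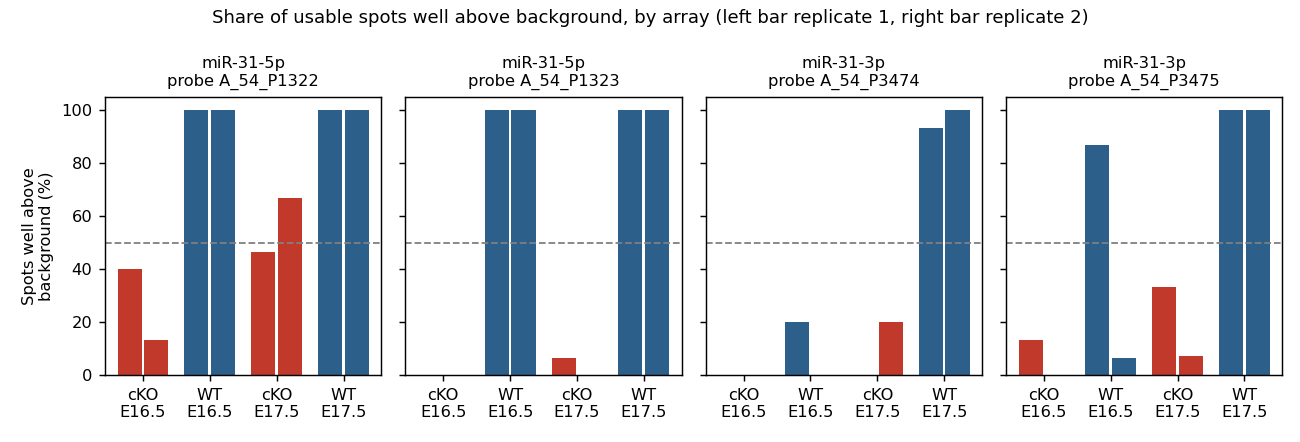
Share of usable spots (%) marked as well above background for each miR-31 probe, with a bar per array and the detection limit of 50% as a dashed line. Every bar of the 5p probes is at 100% in WT, and in cKO only the longer 5p probe on the second E17.5 array passes the line, with 66.7%.

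For the tests each array was divided by the 75th percentile of its 474 commonly detected probes, values under a common floor (−4.24 on the log2 scale) were raised to it, and each miRNA was represented by its brightest probe, here the longer one of each strand. On this log2 scale miR-31-5p averaged −4.17 ± 0.105 in E16.5 cKO and −2.55 ± 0.131 in E16.5 WT, and −4.21 ± 0.0401 in E17.5 cKO and −2.17 ± 0.160 in E17.5 WT (SD, n = 2 arrays each). The order of the groups was E17.5 WT, E16.5 WT, E16.5 cKO and E17.5 cKO. Only the step between E16.5 WT and E16.5 cKO separates neighbours in this order that passed the test, and the first array of each cKO group lay at the floor. Before the floor the cKO arrays had −4.35 and −4.09 at E16.5, and −4.68 and −4.19 at E17.5. The SDs given for the cKO groups therefore understate the spread between pools.

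The comparison of genotypes asked whether miR-31 depends on Dicer in this tissue. miR-31-5p was lower in cKO over both stages, with a log2 change of −1.83 ± 0.0755 (SE, n = 4 arrays of each genotype, limma adjusted p = 5.12e-05), which is 3.56-fold. Of the 383 tested miRNAs 14.6% were called lower, and all 4 cKO arrays lay below all 4 WT arrays in 11.2% of them. In the ranking of fitted changes miR-31-5p was number 8 from the bottom. The change was −1.82 ± 0.0872 without both second E16.5 arrays (limma adjusted p = 0.00389). Within the slide rows, which hold 1 array of each group, it was −1.78 and −1.88. Both strands entered the tested set through WT groups alone, miR-31-5p through both stages and miR-31-3p through E17.5. The test was thus run on miRNAs already known to be detected in WT. The limma adjusted p-values of the fall of miR-31-5p, here and at each stage, therefore describe the fit and are no support by themselves. Permutation tests of the probe signals, given below, used no such filter. The fit raises cKO values to the floor, and without a floor, a setting chosen after seeing the data, the change was −1.97 ± 0.120 (limma adjusted p = 2.45e-06). In bulk tissue, fewer cells of a type and less RNA per cell cannot be told apart.

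miR-31-5p fell at each stage. At E16.5, where it was not well above background on either cKO array, it was at least 2.66-fold lower in cKO, with measured log2 means of −4.22 in cKO and −2.55 in WT (limma adjusted p = 4.15e-04, 2 arrays per genotype). The background share called lower at E16.5 was 15.1%. At E17.5 its log2 change was −2.04 ± 0.107 (SE, n = 2 arrays of each genotype, limma adjusted p = 2.08e-04), or 4.12-fold, against a background of 10.2%. The E17.5 value again includes a cKO array raised to the floor, and without a floor the change was −2.26 ± 0.169 (limma adjusted p = 1.79e-05). Without both second E16.5 arrays the changes were −1.60 ± 0.142 at E16.5 (limma adjusted p = 0.014) and −2.04 ± 0.101 at E17.5 (limma adjusted p = 0.00906).

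The difference between stages in the size of the fall did not pass. The fall was larger by 0.42 at E17.5 (−0.42, 95% interval −0.81 to −0.04), with an unadjusted p of 0.0373 and a limma adjusted p of 0.154. Over 27 alternatives the value ranged between −0.98 without scaling and 0.05 with the scanner's total signal, and 0 of them passed (limma adjusted p = 0.0686 to 0.984). It was −0.44 without both second E16.5 arrays. Of all tested miRNAs 1.57% passed this test of the difference between stages in either direction.

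miR-31-3p was at least 1.62-fold lower in cKO at E17.5, the stage at which it was detected on both WT arrays (limma adjusted p = 0.0124, 2 arrays per genotype). It had entered the tested set only because both E17.5 WT arrays detected it. The bounds and adjusted p-values of miR-31-3p against that group therefore describe the values and the fit, and support no difference. Measured log2 means of miR-31-3p at E17.5 were −4.75 in cKO and −3.97 in WT. Over both stages it was at least 1.14-fold lower (limma adjusted p = 0.0295), with means of −4.78 in cKO and −4.13 in WT. This bound is that of the longer probe, detected on 0 of 4 cKO arrays and 3 of 4 WT arrays. The shorter 3p probe gave 0.862-fold, so that no minimum fall holds for it, and its scaled values lay at the floor on every array. At E16.5 all 4 arrays lay at or below the floor with the longer probe too, with measured means of −4.82 in cKO and −4.30 in WT, and no fold is given. Since all cKO values are the floor itself, their spread was 0 by construction and these p-values understate the spread between pools.

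The 3p calls also depended on single arrays. The call over both stages was lost when any 1 of the 4 cKO arrays or of the 2 E16.5 WT arrays was left out, with limma adjusted p of 0.0759 to 0.0957 and the fitted change at −0.14. The E17.5 call was lost without the first E17.5 cKO array (limma adjusted p = 0.0583) and without the second (limma adjusted p = 0.0704), at −0.28 in each case. Without both second E16.5 arrays neither call held, with limma adjusted p = 0.169 over both stages and 0.0829 at E17.5.

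The unscaled signals of every probe were also compared on their own, by two-sided exact permutation tests of 4 cKO against 4 WT arrays, which need neither scaling nor a choice of probe. The measured signals of the longer 5p probe differed by −2.27 log2 units and those of the shorter one by −2.57, each with an exact permutation p of 0.0286, the smallest possible. Adjusted over the 4 probes this was 0.0571. The shorter 5p probe was detected on 0 of 4 cKO arrays, and on the scaled values it was at least 2.71-fold lower in cKO. Among the 3p probes, also detected on 0 of 4 cKO arrays, the longer differed by −0.96 (exact permutation p = 0.0571, adjusted 0.0762) and the shorter by −0.74 (exact permutation p = 0.0857, adjusted 0.0857). With permutation within stage all 4 probes gave p = 0.0556, which is the smallest possible there. Unscaled differences also include the brightness of whole arrays, with 75th percentiles of 288 to 408 units in cKO and 284 to 521 units in WT. After division by these the differences were smaller. They were −1.97 and −2.26 for the longer and shorter 5p probe, and −0.65 and −0.43 for the longer and shorter 3p probe.

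**Figure D3:**
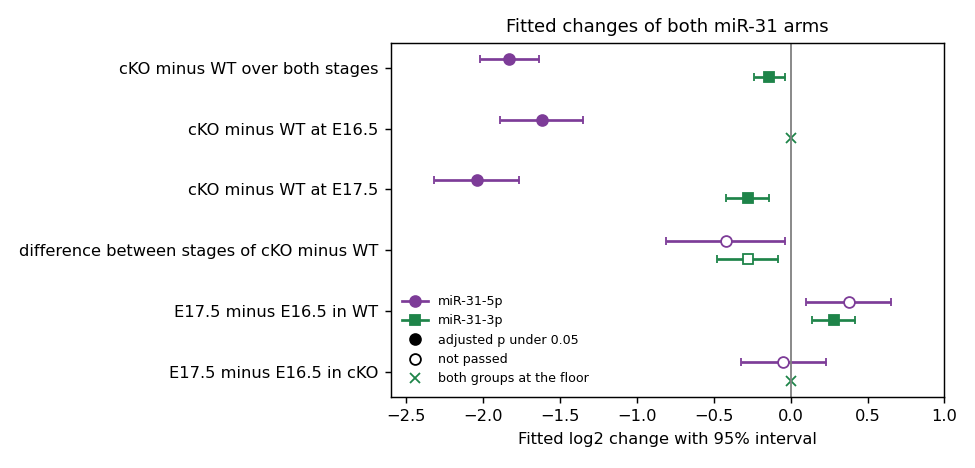
Fitted log2 changes of miR-31-5p (circles) and miR-31-3p (squares) in 6 contrasts, with 95% intervals from the limma fit. Filled symbols passed at an adjusted p under 0.05. That is no support by itself, because miR-31-5p was chosen for testing by its detection in WT and miR-31-3p in E17.5 WT. Crosses mark contrasts of miR-31-3p in which both groups lay at the floor. The 5p strand is at −1.83, −1.62 and −2.04 in the genotype contrasts.

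In wild type the stage comparison asked whether miR-31 changes as footpad development proceeds. miR-31-5p was at 0.38 ± 0.107 for E17.5 minus E16.5 (SE, 2 arrays per stage, 95% interval 0.10 to 0.65, limma adjusted p = 0.0749), and so did not pass. With the slide row, which goes with the replicate number, as a block it passed (0.38 ± 0.0502, limma adjusted p = 0.0258), and within the rows it was 0.36 and 0.40. It was 0.47 ± 0.123 without both second E16.5 arrays (limma adjusted p = 0.152). Both E17.5 WT arrays lay above both E16.5 WT arrays on the scaled log2 values, which was so for 19.1% of tested miRNAs. The value depended on the scaling of the arrays. The E17.5 WT arrays were brighter as a whole, with 75th percentiles of 503 and 521 units, against 398 and 284 units on the E16.5 WT arrays. Over 6 scalings the stage change of miR-31-5p ranged between 0.38 and 0.98 and passed in 4. Taken against the tested miRNAs' median, which moved between −0.05 and 0.47, it ranged only between 0.42 and 0.51.

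miR-31-3p had 30.3 and 35.5 units in E17.5 WT, against 20.2 and 14.4 units in E16.5 WT, and both E16.5 arrays lay at the floor after scaling. Its fitted change was 0.28 ± 0.0551 (SE, 2 arrays per stage, limma adjusted p = 0.0388), in a comparison in which 4.18% of tested miRNAs were called higher. Since it was tested only because of its detection in E17.5 WT, and its E16.5 values are the floor, that p-value is no support for a rise. The adjusted p was above 0.05 without any 1 of the 4 cKO or 2 E16.5 WT arrays (0.0715 to 0.118), without both second E16.5 arrays (0.196), with the slide row as a block (0.0502) and with no floor (0.33, limma adjusted p = 0.12). Within the slide rows the change was 0.19 and 0.36. Unscaled, the change of its longer probe was 0.94 log2 units and that of the shorter 1.06. Both values include the greater brightness of the E17.5 WT arrays as a whole.

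In cKO no stage change of miR-31-5p was detectable. It was at −0.05 ± 0.107 for E17.5 minus E16.5 (95% interval −0.32 to 0.23, limma adjusted p = 0.781), and at 0.03 without both second E16.5 arrays. Both cKO groups were near the floor, which limits any change that could be seen. miR-31-3p was detected on 0 of 4 cKO arrays by its probes, so that no change can be given.

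**Figure D4:**
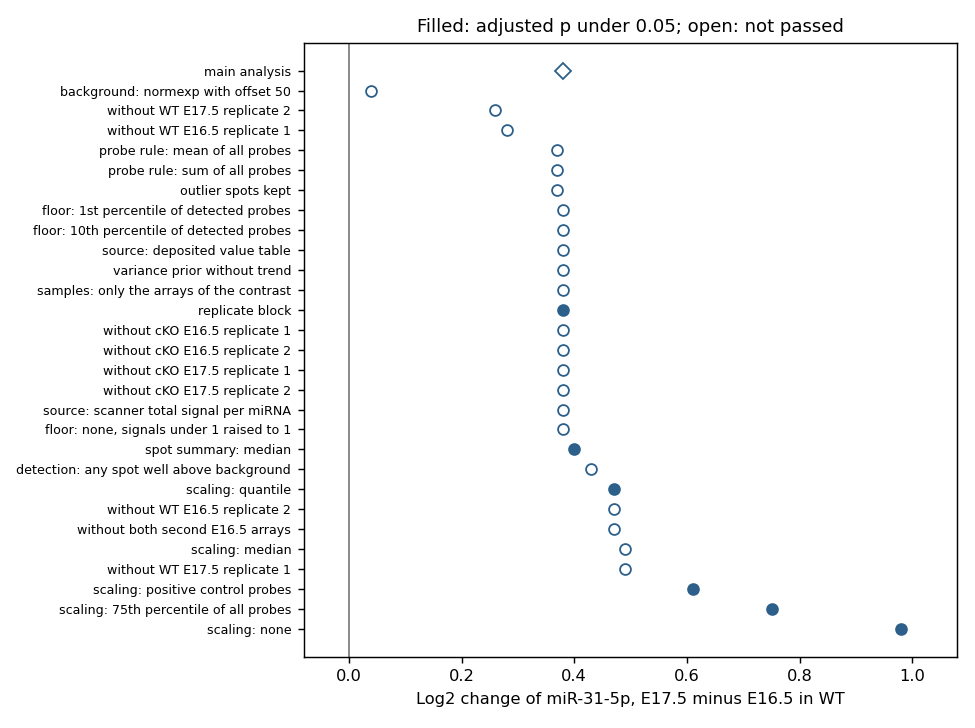
Log2 change of miR-31-5p between E17.5 and E16.5 in WT in the main analysis (diamond, 0.38) and under each alternative (circles), filled where the limma adjusted p was under 0.05. All values are above 0, between 0.04 with normexp background correction and 0.98 without scaling.

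Other miRNAs had profiles like that of miR-31-5p over the 8 arrays. By Pearson correlation of scaled log2 values, given as a description because all arrays share the genotype split and the floor, the nearest were miR-221-3p (r = 0.997) and miR-203-5p (r = 0.994). miR-221-3p is known to target the cell cycle inhibitor p27, and miR-203-5p comes from the other arm of the epidermal miR-203 hairpin. They were followed by miR-141-3p and miR-200c-3p (r = 0.991 each), which restrain epithelial-to-mesenchymal transition, and miR-203-3p (r = 0.988), which promotes keratinocyte exit from the cell cycle. Their fitted changes between cKO and WT over both stages ran from −1.21 for miR-221-3p to −3.36 for miR-200c-3p. In WT their values for E17.5 minus E16.5 ran from 0.17 to 0.27. miR-31-3p ranked only number 43 of 382 in likeness to miR-31-5p (r = 0.666), with 6 of its 8 values at the floor. Without both second E16.5 arrays, over 6 arrays, miR-221-3p was still the nearest to miR-31-5p (r = 0.999) and the other 4 had r of 0.986 to 0.994. The nearest miRNA to miR-31-3p over the 8 arrays was miR-6997-5p (r = 0.916). It was followed by miR-669c-3p (r = 0.874), miR-23a-3p (r = 0.788), miR-27a-3p (r = 0.73) and miR-1839-5p (r = 0.707). Of these miR-669c-3p itself hardly changed, with 0 between genotypes over both stages and 0.01 between stages in WT. Its r therefore describes no shared change of any size. Likeness to miR-31-3p was not computed without both second E16.5 arrays.

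Markers of the epithelium moved with miR-31-5p. All 5 skin epithelium markers were called lower in cKO over both stages, against 14.6% of all tested miRNAs. Their summed unscaled signal was 982 to 1200 units on the cKO arrays against 7320 to 15600 units on the WT arrays. Of the 5 markers of dermal mesenchyme 4 were called higher, against 45.7% of all tested miRNAs, with summed signals of 13800 to 20500 units in cKO and 10700 to 18700 units in WT. Those 4 increases depended on the scaling, with 0 called higher under 3 of the 6 scalings and 1 called lower under the scaling to control probes. Markers of other tissues were called higher in 3 of 3 for skeletal muscle, 2 of 2 for endothelium, 2 of 4 for blood and 0 of 2 for cartilage. The 1 nerve marker tested was called in neither direction. Counts for these other tissues were not computed under the other scalings. Without both second E16.5 arrays 5 of 5 epithelial markers were called lower, and 4 of 5 dermal, 3 of 3 muscle, 2 of 2 endothelial and 1 of 4 blood markers higher, against 13% of all tested lower and 48.4% higher. The markers are themselves miRNAs, so that fewer cells of a tissue and less miRNA per cell cannot be told apart by them either. The part of cell composition in the fall of miR-31-5p was not tested.

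A list of 20 other miRNAs known to act on keratinocyte growth or differentiation was set beside miR-31. It was chosen with earlier results of these data known, so that its counts are a description. The list shares miR-203-3p and miR-205-5p with the epithelial markers and miR-214-3p with the dermal ones. Of these 18 were tested, while miR-184-3p and miR-155-5p were detected on no array (0 arrays). Over both stages 9 were called lower in cKO, 5 higher and 4 did not pass, with a median of −0.12 against 0.17 for all 383 tested, of which 14.6% were called lower and 45.7% higher. The largest decreases were in miR-203-3p (−3.19), miR-205-5p, which supports growth of skin stem cells (−3.12), miR-34a-5p, a p53 target that halts the cell cycle (−1.72), and miR-221-3p (−1.21). The largest increases were in miR-146a-5p, which dampens inflammatory signalling in keratinocytes (0.37), and miR-483-3p, which restrains keratinocyte proliferation at wound closure (0.37). Under 3 of the 6 scalings 0 of the 18 were called higher, and without both second E16.5 arrays 9 were called lower and 4 higher, with a median of −0.12. For E17.5 minus E16.5 in WT, 1 of the 18 was called higher, miR-221-3p (0.25 ± 0.0493, limma adjusted p = 0.0384), and 1 lower, miR-214-3p, which restrains Wnt signalling in skin (−0.29 ± 0.0482, limma adjusted p = 0.0248). Of all tested miRNAs 4.18% were called higher and 10.7% lower in that comparison. Without both second E16.5 arrays 0 of the 18 were called higher and 1 lower.

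**Figure D5:**
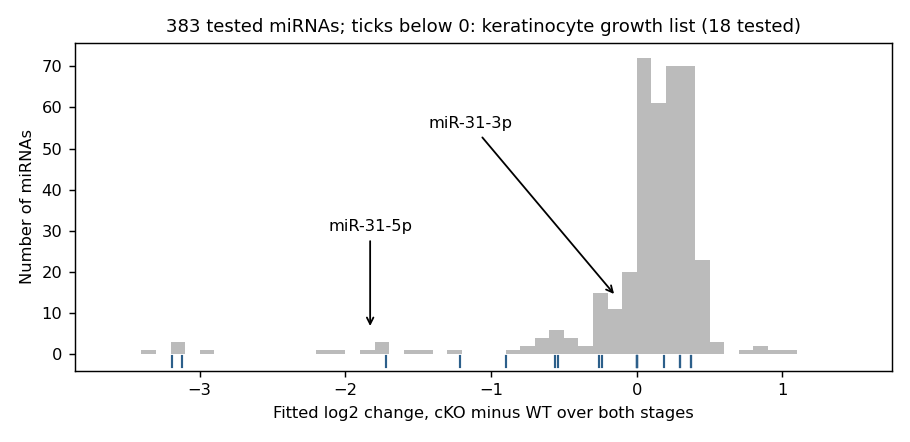
Number of miRNAs by fitted log2 change, cKO minus WT over both stages, for all 383 tested miRNAs (grey), with arrows at miR-31-5p (−1.83) and miR-31-3p (−0.14) and ticks for the 18 tested miRNAs of the keratinocyte growth list. Most miRNAs lie near the median of 0.17, and miR-31-5p lies in the sparse lower tail.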

How the data were processed

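Per the file headers, version 11.5.1.1 of Agilent Feature Extraction read the single-colour scans. Each deposited scanner file gives each spot's background-subtracted fluorescence intensity, not scaled between arrays. The deposited value table equalled it within 0.02 in 100% of spots above 0, so it is linear, unscaled and uncentred, with array medians of 2.90 to 5.12. Here outlier spots (2.84% to 6.02% of mouse miRNA spots per array) were left out, the rest averaged per probe, divided by the 75th percentile of probes detected on all 8 arrays, raised to a floor and logged. The floor is the 5th percentile of detected probes, as its median across arrays. Fitted were the 383 miRNAs that both arrays of some group detected, with limma 3.58.1 in R 4.3.3 (4 group means, eBayes with trend, 4 residual degrees of freedom), with Benjamini-Hochberg adjustment over all tested per contrast at 0.05. The fit was tested on simulated data. A bound sets each dim array at its lowest detected probe signal or, if higher, the probe's own. Named miRNAs were both miR-31 strands, the 5 most correlated tested miRNAs of each, and the keratinocyte growth list by largest absolute change. Members and lists were chosen with earlier results of these data known. Figures used matplotlib 3.10.9 in Python 3.11.15. Alternatives to scaling, background, floor, detection, probe rule, spots and samples were run.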

Additional observations from a re-analysis of the deposited data

How the results depend on the processing

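The fall of miR-31-5p kept its direction and its call under every alternative run: 27 over both stages (−2.44 to −0.58), 28 at E16.5 (−2.46 to −0.43) and 28 at E17.5 (−2.47 to −0.72), the smallest each with normexp, whose offset of 50 units exceeds the cKO signals. Leaving out 1 array gave −1.89 to −1.77, −1.71 to −1.53 and −2.16 to −1.93. The WT stage change of miR-31-5p (0.38) passed with all-probe (0.75), no (0.98), quantile (0.47) and positive-control scaling (0.61), with the spot median (0.40) and with the replicate block (0.38, limma adjusted p = 0.0258). Its cKO stage change (−0.05) passed with normexp only (−0.25), and changed sign with all-probe (0.02), no (0.01) and quantile scaling (0.02), the scanner's total signal (0.43) and no second E16.5 arrays (0.03), and ran from −0.12 to 0.03 without 1 array. Its difference between stages (−0.42) was 0.05 with the scanner's total and −0.98 unscaled. For the 3p strand, leaving out 1 array gave −0.18 to −0.09 over both stages, −0.36 to −0.19 at E17.5, −0.36 to −0.19 for the difference between stages, and 0.19 to 0.36 for the WT stage change. The 3p change over both stages was 0.02 with normexp and lost its call with a 10th percentile floor (−0.06), the mean of all probes (−0.06), outlier spots kept (−0.12), and, among alternatives chosen after seeing the data, the scanner's total signal (−0.74) and the fit without both second E16.5 arrays (−0.14). At E17.5 the 3p call was lost with normexp (0), that floor (−0.11), the probe mean (−0.12), the E17.5 arrays alone (−0.28), the scanner's total (−0.81) and without both second E16.5 arrays (−0.28). At E16.5 the 3p strand passed as lower with detection by any spot (−0.55), the sum of probes (−0.37) and no floor (−0.52). The difference between stages of the 3p strand passed without scaling (−0.69) and with quantile scaling (−0.47). It was −0.36 without the first E17.5 WT array and −0.19 without the second. In these 2 fits every group with 2 arrays lay wholly at the floor. Their spread was thus 0 by construction, and no call is drawn from them. The 3p change between stages in WT was −0.14 with normexp and lost its call with the 10th percentile floor (0.11), any-spot detection (0.39), the probe mean (0.12), the probe sum (0.39), outlier spots kept (0.25), the WT arrays alone (0.28), the replicate block (0.28, limma adjusted p = 0.0502), the scanner's total (1.2), no second E16.5 arrays (0.28) and no floor (0.33). The cause was not tested. After scaling, per-probe permutation passed for both 5p probes (−1.97 and −2.26) and the longer 3p probe (−0.65), each at an adjusted permutation p of 0.0381. For the 5p probes the exact permutation p itself stayed at 0.0286, the smallest possible. Only the adjustment moved, since the longer 3p probe now also reached 0.0286. Permutation within stage still gave p = 0.0556 for each of these probes. The replicate numbers, which go with the slide row, were not taken to pair the samples: deviations of same-numbered arrays correlated at −0.14 to 0.28 over 6 pairs of groups, above 0.1 in 5. Beyond both WT stage changes, the block changed no other call of either strand. Over all miRNAs, decreases over both stages numbered 56, or 167 with control-probe scaling. At E16.5 they numbered 58, or 17 unscaled, 18 with all-probe and 99 with control-probe scaling, and at E17.5 39, or 190 with control-probe scaling. Increases between stages in WT numbered 16, but 188 unscaled, 93 with control-probe and 27 with median scaling, 25 with any-spot detection, 9 with outlier spots kept, 8 with the probe mean, 0 from the WT arrays alone, 1 without both second E16.5 arrays and 2 to 14 without 1 array. Testing all 1881 miRNAs was not run, since 1495 lay at the floor on all 8 arrays and the variance trend could not be fitted. miR-31-3p gave no value among miRNAs detected on all arrays, nor did miR-31-5p. Signal over background limits the 3p strand everywhere except in E17.5 WT and the 5p strand in cKO.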

Other observations

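The values below were computed after the signals had been seen. Within an array, the ratio of the longer 5p to the longer 3p probe needs no scaling. It was 1.41 and 1.62 in E16.5 cKO against 3.15 and 3.59 in E16.5 WT, and 1.12 and 1.38 in E17.5 cKO against 3.41 and 3.53 in E17.5 WT. The 3p probe was detected on 0 of 4 cKO arrays and the 5p probe on 1 of 4. The cKO ratios are therefore ratios of signals near background, and no difference between the genotypes is drawn from them. A ratio of different probes says nothing about which strand was more abundant.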
